A study of Mus musculus with 12 samples.

Results

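Ly6a, Ly6c1, Ly6c2, Ly6d and Ly6e encode small cell-surface proteins of the Ly6 family, and Ly6a encodes Sca-1 (stem cell antigen-1). The 5 genes were taken by name from a table of 20432 genes. Ly6a, Ly6c1 and Ly6e passed a filter on low values and were among 12734 genes tested, while Ly6c2 and Ly6d were below it. Levels were measured by RNA sequencing of cultured mouse pancreatic ductal adenocarcinoma lines numbered 52205, 52419, 52424, 53105, 53369 and 53371. The Cre group holds 1 library of each line, labelled as a JAK1 knockout. Those cells had been infected with a retrovirus that carries Cre recombinase and puromycin resistance, and were then selected with puromycin raised stepwise from 2 to 4 and 7 µg/ml. The parental group holds 1 library of each uninfected line, labelled wild type. All cells were grown in the same serum-containing medium, and the labels give neither the Jak1 exons that Cre removes nor whether the Cre cells are clones or pools. Cultures given an empty retrovirus were not analysed here, so infection, selection and time in culture cannot be told apart from the loss of JAK1. Each p-value therefore rests on the spread between 6 lines with 1 pair of cultures each.

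Ly6 proteins consist of a small domain held by disulfide bonds and are mostly tethered to the outer leaflet of the plasma membrane by a glycosylphosphatidylinositol (GPI) anchor. In the mouse, Sca-1 marks haematopoietic stem cells and progenitor cells of several tissues, Ly6C marks monocytes and some T and endothelial cells, Ly6D marks early B-lineage cells and squamous epithelium, and Ly6E is widely expressed and limits the entry of some viruses. Ly6a and Ly6e are known as genes induced by interferons, whose receptors signal through JAK1 and STAT transcription factors.

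The libraries held 11.5 to 18.0 M reads in genes (M, 1e+06 reads), and 1 read was worth between 0.0569 and 0.0896 normalised counts per 1e+06 reads (CPM). Jak1 itself was present at 104 to 234 CPM in Cre libraries and at 125 to 207 CPM in parental libraries, a log2 change of -0.04 with limma adjusted p = 0.838 (Benjamini-Hochberg), and a gene total does not show whether exons were removed. The label of ductal carcinoma was checked against epithelial markers. Krt8, a keratin of simple epithelia, was at 755 to 3120 CPM in Cre and 776 to 2401 CPM in parental libraries of 5 lines, but at 0.538 CPM in Cre and 0.818 CPM in parental cells of 52419. Cdh1, the epithelial cadherin, was at 0.615 CPM in Cre and 0.372 CPM in parental cells of 52419. Cdh1 was at 425 to 675 CPM in Cre and 272 to 805 CPM in parental libraries of 52205, 52424, 53105 and 53371, but at 36.4 CPM in Cre and 17.5 CPM in parental cells of 53369. Krt7, a ductal keratin, was at 4.79 CPM in Cre and 1.38 CPM in parental cells of 53369, where Krt8 was present. Line 52419 thus lacked Krt8 and Cdh1 and 53369 was low in Cdh1 and Krt7, while the ductal keratin Krt19 was at 19.9 CPM in Cre cells and 15.5 CPM in parental cells of 52419. The leukocyte marker Ptprc stayed at or below 1.02 CPM and the endothelial marker Pecam1 at or below 1.11 CPM in every library. Summed leukocyte markers reached 0.534 to 2.91 CPM in Cre and 0.227 to 3.44 CPM in parental libraries, and summed endothelial markers 1.17 to 5.32 CPM in Cre and 1.30 to 7.01 CPM in parental libraries.

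Ly6c1 and Ly6c2 are near copies of each other, and their coding sequences are shown because reads from one could be counted for the other. The first 300 of 396 coding bases are from the GENCODE transcripts on GRCm38, chromosome 15, 5′ to 3′ in the coding direction, and capitals mark the 7 bases that differ within them.
Ly6c1: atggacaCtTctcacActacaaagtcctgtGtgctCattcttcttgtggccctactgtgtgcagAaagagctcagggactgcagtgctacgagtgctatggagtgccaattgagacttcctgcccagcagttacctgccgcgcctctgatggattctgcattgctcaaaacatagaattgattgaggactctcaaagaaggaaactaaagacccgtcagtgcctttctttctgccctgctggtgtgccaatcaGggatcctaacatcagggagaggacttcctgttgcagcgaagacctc
Ly6c2: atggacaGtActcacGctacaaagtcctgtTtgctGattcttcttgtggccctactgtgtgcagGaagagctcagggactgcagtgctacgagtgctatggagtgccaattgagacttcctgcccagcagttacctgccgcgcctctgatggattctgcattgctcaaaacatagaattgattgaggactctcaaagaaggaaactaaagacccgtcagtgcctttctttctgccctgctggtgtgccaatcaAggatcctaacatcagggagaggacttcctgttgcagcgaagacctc
The 2 sequences were identical at 387 of 396 positions (97.7%), with 9 differences and 0 gaps over the whole coding sequence, and their transcripts shared a run of 188 bases. Of 723 windows of 100 bases in the Ly6c2 transcript, 114 occurred in the Ly6c1 transcript too. How reads matching both genes were counted is not given in the sources used here, so the division of reads between Ly6c1 and Ly6c2 is uncertain. Ly6a was 82.0% identical to Ly6c1 and 81.7% to Ly6c2 over the coding sequence, but no window of 100 bases was shared and the longest shared run with Ly6c1 was 89 bases. A read lying within that run would match both Ly6a and Ly6c1, and how many did was not examined. Ly6d and Ly6e were each 50.1% to 53.5% identical to the other members.

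Ly6a (Sca-1; chromosome 15, 74994877 to 74998031, GRCm38) was lower in Cre cells of 5 of the 6 lines and higher in 53369, and the mean difference did not pass the test across all genes. Ly6a was at 46.6 CPM in 52205, 5.07 in 52419, 540.3 in 52424, 51.9 in 53105, 26.6 in 53369 and 186 in 53371 after Cre. In parental cells of the same lines it was at 151, 12.3, 1187, 133, 17.1 and 190.0 CPM. In bulk RNA, fewer cells with a transcript and less of it per cell cannot be told apart. The groups overlapped widely, because the lines differed more among themselves than Cre and parental cells of 1 line did. Ly6a averaged 143 ± 205 CPM in Cre and 282 ± 449 CPM in parental libraries (SD, n = 6 each). The level in Cre relative to parental cells was 3.24-fold lower in 52205, 2.56-fold lower in 53105, 2.42-fold lower in 52419 and 2.20-fold lower in 52424. In 53369 it was 1.56 times the parental level, with a 95% counting interval of 1.32 to 1.85. In 53371 the ratio was 0.980 with a counting interval of 0.924 to 1.04, which holds 1. These exact intervals cover counting error only and not the variation between cultures. The lines thus split into 4 with less Ly6a after Cre, 1 with nearly equal levels and 1 with more.

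In limma's fit with cell line as a block, the log2 change of Ly6a, Cre minus parental, was -0.79 (SE 0.27, 95% confidence interval -1.40 to -0.19), with an unadjusted p of 0.0157 and a Benjamini-Hochberg adjusted p of 0.264. An exact 2-sided sign-flip permutation test over the 6 pairs gave p = 0.0938, and 6 pairs cannot give a p below 0.0313. A long non-coding gene, Gm28068 (chromosome 15, 74966931 to 75043885), spans Ly6a in the reference and has no row in the table used here. Whether its exons overlap those of Ly6a was not examined. Any of its reads on Ly6a exons could not be told apart, since the library protocol names no strand-marking step.

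Ly6c1 (chromosome 15, 75044018 to 75048920), 1 of the 2 genes for Ly6C, was like Ly6a lower in Cre cells of 5 lines and higher in 53369. It was at 12.9 CPM in 52205, 8.07 in 52419, 51.7 in 52424, 13.5 in 53105, 16.4 in 53369 and 22.5 in 53371 after Cre, against 19.9, 10.7, 129, 31.7, 12.8 and 28.2 CPM in parental cells of those lines. The Cre level was 2.49-fold lower in 52424 and 2.35-fold lower in 53105, the lines with the largest differences, and 1.28 times the parental level in 53369. In 53371 the ratio of Cre to parental was 0.797 for Ly6c1 (counting interval 0.678 to 0.937), while Ly6a was nearly equal there at 0.980. Ly6c1 averaged 20.8 ± 15.8 CPM in Cre and 38.7 ± 45.0 CPM in parental libraries (SD, n = 6 each), and the 2 groups overlapped. The log2 change was -0.58 (SE 0.20, interval -1.03 to -0.13), with an adjusted p of 0.266 by limma with Benjamini-Hochberg adjustment. Its exact sign-flip permutation p was 0.0938, equal to that of Ly6a.

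Ly6c2 (chromosome 15, 75108161 to 75112066), the near copy of Ly6c1, was barely expressed, with 178 reads over all 12 libraries and at least 1 CPM in 4 of them. Cre cells held 3 reads in 52205, 6 in 52419, 21 in 52424, 11 in 53105, 7 in 53369 and 13 in 53371, against 5, 10, 54, 31, 10 and 7 reads in parental cells. The counting interval of the ratio excluded 1 in only 2 lines, 52424 at 0.328 (0.188 to 0.553) and 53105 at 0.370 (0.168 to 0.757). In the other 4 lines a difference was not detectable at this depth. The mean of the 6 log2 differences was -0.44 ± 0.67 (SD), lower in 5 lines, with an exact sign-flip permutation p of 0.219. Ly6c1 had between 14.4 and 53 times as many reads as Ly6c2 in the same library.

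Ly6e (chromosome 15, 74955025 to 74959904), the interferon-inducible member known for limiting virus entry, was lower in Cre cells of all 6 lines, by sizes that differed between lines. It was at 206 CPM in 52205, 229.7 in 52419, 520.2 in 52424, 340.2 in 53105, 350.4 in 53369 and 345 in 53371 after Cre. Parental cells of those lines held 375, 347, 947, 356, 367 and 409 CPM. The ratio of Cre to parental was 0.549 in both 52205 and 52424 and 0.662 in 52419, while it was 0.842 in 53371, 0.957 in 53105 and 0.954 in 53369. The values of the groups overlapped, with means of 332 ± 112 CPM in Cre and 467 ± 236 CPM in parental libraries (SD, n = 6 each).

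The log2 change of Ly6e was -0.45 (SE 0.13, interval -0.73 to -0.17), with an unadjusted p of 0.00561 and an adjusted p of 0.224 by limma with Benjamini-Hochberg adjustment. The exact sign-flip permutation p was 0.0313, the smallest that 6 pairs can give. DESeq2 on the recovered reads gave Ly6e an adjusted p of 0.0572, the lowest over the alternatives run for it, whose highest was 1.00.

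Ly6d (chromosome 15, 74762056 to 74763567), a marker of squamous epithelium and early B-lineage cells, was found in few libraries, with 31 reads in all. Its reads in Cre cells were 2 in 53371 and 0 in the other 5 lines, against 15 in 52424, 13 in 53371, 1 in 52205 and 0 in 52419, 53105 and 53369 in parental cells. In 52424 the Cre level was at 0 reads and the parental level at 1.29 CPM, and the counting interval of their ratio reached up to 0.236. In 53371 it was 0.169 CPM in Cre and 1.02 CPM in parental cells, a ratio of 0.165 with a counting interval of 0.0181 to 0.729. The limit that a count of 0 allows, taken as 3 reads, was between 0.171 and 0.269 CPM per library, so in 3 lines Ly6d was not detectable at this depth in either culture. The mean log2 difference was -0.54 ± 0.79 (SD) with an exact sign-flip permutation p of 0.25, the smallest this test can give with 3 of the 6 differences at 0.

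No member passed an adjusted p under 0.05 in limma's test with Benjamini-Hochberg adjustment, where 3 of the 12734 genes tested (0.0236%) did. None was called by edgeR, which called 0.0393% of genes with the filter and 0.299% of all 20432 genes without it, nor by DESeq2, which called 2.12%, 1.63% as lower. At an unadjusted p under 0.05 the 3 tested members were all lower, where 8.18% of genes were lower at that threshold. One of the 3, Ly6e, was lower in 6 of 6 pairs, as were 4.56% of genes, and all 3 were lower in at least 5 pairs, as were 17.8%. No member's Cre and parental values were free of overlap, which 0.0942% of genes were. The median change of the 3 was -0.58, against -0.00024 over all genes tested, of which 50.1% were below 0.

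**Figure D1:**
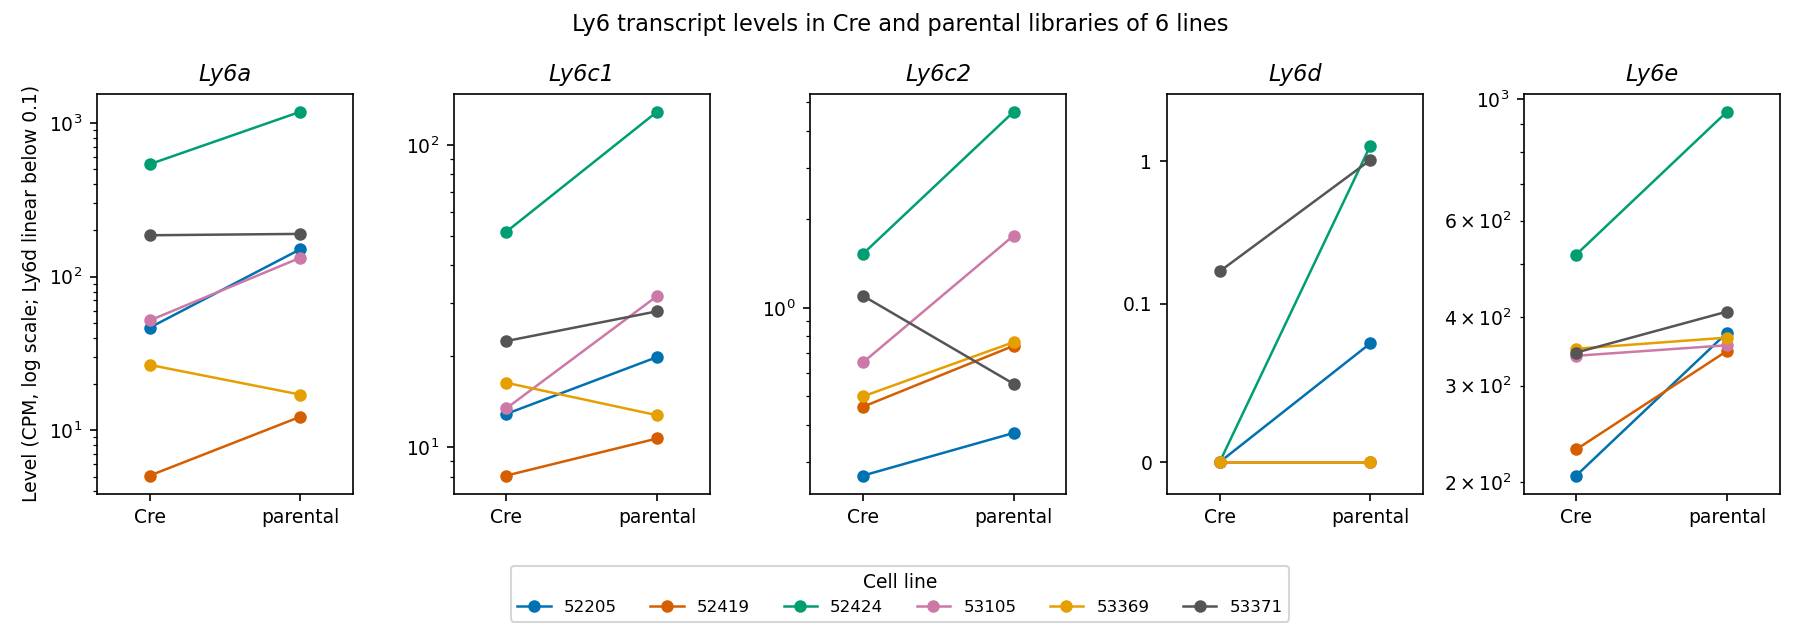
Levels of the 5 Ly6 genes in each of the 12 libraries, as deposited CPM on log axes (linear below 0.1 for Ly6d), Cre on the left and parental on the right, with 1 line per cell line joining its 2 libraries. Line 52424 held the most Ly6a, Ly6c1 and Ly6e in both groups (540.3 CPM of Ly6a after Cre and 1187 in parental cells), Ly6a and Ly6c1 were higher after Cre in 53369 only, and the lines of 52419, 53105 and 53369 lie on each other at 0 for Ly6d.

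**Figure D2:**
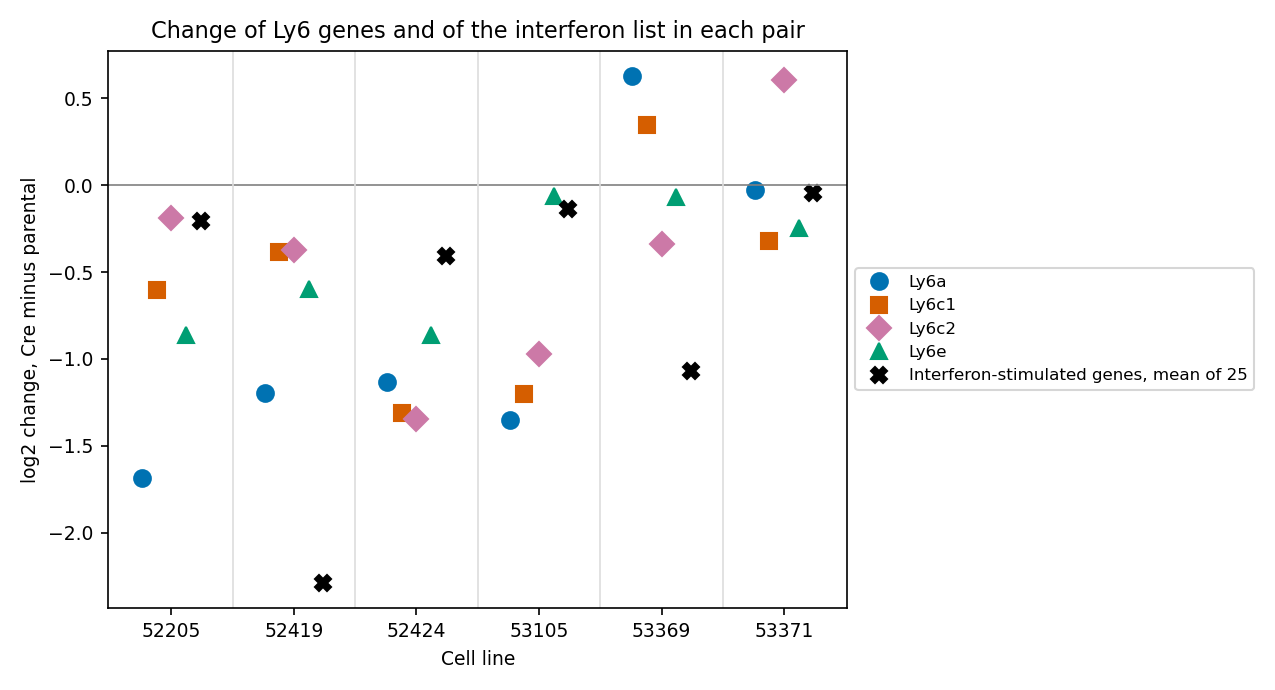
Log2 difference, Cre minus parental, of Ly6a, Ly6c1, Ly6c2 and Ly6e in each of the 6 lines, on the log2(value + 0.5) scale, with the mean over 25 interferon-induced genes as a cross. All 6 points of Ly6e lie below 0 (-0.86 to -0.06), those of Ly6a run from -1.69 in 52205 to 0.63 in 53369, and the interferon-induced genes are lowest in 52419 (-2.29) and 53369 (-1.07).

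The lines differed in the size of these changes in a way that depended on the gene. The log2 difference of Ly6a was -1.69 in 52205, -1.20 in 52419, -1.13 in 52424 and -1.35 in 53105, while that of Ly6e was -0.86, -0.59, -0.86 and -0.06 in the same lines. Line 53105 thus had less Ly6a and Ly6c1 after Cre, with log2 differences of -1.35 and -1.20, but nearly the same Ly6e. In 53369, where Ly6a and Ly6c1 were higher after Cre by 0.63 and 0.34 on the log2 scale, Ly6c2 was at -0.34 and Ly6e at -0.07. With 1 library per line and condition, these differences between lines have no replicate check.

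Between lines, Ly6a covered the widest range of the 3 tested members. Its highest library held 107 times the level of its lowest among Cre libraries and 96.8 times among parental libraries. For Ly6c1 these ratios were 6.41 in Cre and 12.1 in parental libraries, and for Ly6e 2.53 in Cre and 2.73 in parental libraries. By the mean of the 2 libraries of a line, Ly6a ran from 863 CPM in 52424 through 188 in 53371, 98.9 in 52205, 92.5 in 53105 and 21.9 in 53369 to 8.67 in 52419. The neighbours 52205 and 53105 in this order were closer to each other than the 2 cultures of either line. Ly6c1 and Ly6e had the same line at the top, 52424 with 90.3 CPM of Ly6c1 and 734 CPM of Ly6e, and the same line at the bottom, 52419 with 9.39 CPM and 288 CPM. For Ly6e the lines below 52424 lay between 288 and 377 CPM, within the difference that Cre and parental cells of 52205 showed.

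Per kilobase of exon, which allows genes to be compared, Ly6a and Ly6e were the abundant members. Ly6a averaged 142 CPM per kb in Cre and 281 CPM per kb in parental libraries, and Ly6e 135 in Cre and 190 in parental libraries on the same scale. Ly6c1 averaged 13.5 CPM per kb in Cre and 25.02 in parental libraries, Ly6c2 0.866 in Cre and 1.70 in parental libraries, and Ly6d 0.0379 in Cre and 0.536 in parental libraries. Which gene led on this scale depended on the line. In 52424 Ly6a led with 538 CPM per kb in Cre and 1182 in parental cells, against 211 CPM per kb of Ly6e in Cre and 385 in parental cells. Ly6a also led in both cultures of 53371, with 185 CPM per kb in Cre and 189 in parental cells, against 140.1 of Ly6e in Cre and 166 in parental cells. Ly6e led in the other 4 lines, by least in parental 52205, with 152 CPM per kb against 151 of Ly6a.

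Of the other Ly6 and urokinase-receptor family genes, 28 of 40 listed were in the table and 6 passed the filter. None was called by limma, edgeR or DESeq2, and in limma's test without adjustment 2 were higher and none lower, where 6.96% of all genes were higher at p under 0.05. Their median log2 change was 0.14, with 1 gene below 0 and 5 above. Psca, prostate stem cell antigen, a GPI-anchored protein often found in pancreatic carcinoma, was at 12.4 CPM in 52205, 0.461 in 52419, 80.9 in 52424, 13.1 in 53105, 1.00 in 53369 and 80.1 in 53371 after Cre. Its parental levels were 3.53, 0.223, 100.6, 7.85, 0.612 and 25.3 CPM, so that it was higher after Cre in 5 lines and lower in 52424. The log2 change of Psca was 0.76 (SE 0.25), with a limma adjusted p of 0.258. Lypd6, a regulator of Wnt signalling, had a change of 0.64 (limma adjusted p = 0.206) at low levels of at most 9.91 CPM, with 6 of 6 lines higher. That direction rests on few reads in some lines, with 4 in Cre and 2 in parental cells of 53371. In 53105 it rests on 14 reads in Cre and 9 in parental cells. Ly6g2 (0.16), Cd59a (0.13), an inhibitor of complement, Lynx1 (-0.09), a modulator of nicotinic receptors, and Plaur (0.02), the urokinase receptor, had log2 changes near 0.

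The 22 family genes below the filter included 17 that were under 1 CPM in every library. Ly6k reached 25.1 CPM in parental 53371, against 9.04 CPM in Cre cells of that line. Ly6g, the granulocyte antigen, peaked at 4.48 CPM in parental 52424, the line and culture with the most Ly6a, Ly6c1, Ly6c2, Ly6d and Ly6e.

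Genes that build and remodel the GPI anchor, which Ly6 proteins need to reach the surface, were compared beside the members. None of the 29 tested was called by limma, edgeR or DESeq2, with 1 lower and 3 higher at an unadjusted p under 0.05 in limma. Over all genes tested, 8.18% were lower and 6.96% higher at that threshold. The median log2 change of the 29 was 0.07, with 11 below 0 and 18 above, where 50.1% of all genes were below 0. Pigw, an inositol acyltransferase, had a change of 0.34 (limma adjusted p = 0.279), Pigk (0.25) and Gpaa1 (0.22), subunits of the transamidase that attaches the anchor, were above 0, and Pign (-0.17), an ethanolamine phosphate transferase, was below 0. The mean change of the GPI genes in a line ran from -0.07 in 52419 to 0.19 in 53105.

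Genes known to be induced by interferon, a list that holds no Ly6 gene, were mostly lower in Cre cells by estimate. Of 25 tested, 23 had a change below 0 and the median log2 change was -0.73, but limma and edgeR called 0 and DESeq2 called 6, all lower. At an unadjusted p under 0.05 in limma, 14 were lower and 0 higher. Over all genes tested, 8.18% were lower and 6.96% higher at that threshold, 50.1% were below 0, and DESeq2 called 1.63% as lower. Ifitm3, a membrane protein that blocks virus entry, had a log2 change of -0.95 (limma adjusted p = 0.140), Ifit1, which binds viral RNA, -1.15 (0.205), Ifi27 -1.32 (0.230) and Irf9, a transcription factor of the interferon response, -1.08 (0.232). Of 15 interferon and gp130 signalling genes, 14 were below 0 with a median of -0.21, and 7 were lower and 0 higher at an unadjusted p under 0.05 in limma. Limma and edgeR called none of the 15 and DESeq2 called 3 lower. Stat3 had a log2 change of -0.55 (limma adjusted p = 0.137), Socs3, a feedback inhibitor of cytokine receptors, -0.77 (0.154) and Ifnar2, a chain of the type I interferon receptor, -0.28 (0.298). The 2 lists share genes, Irf9 among them.

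The lines with the largest mean differences of the interferon-induced genes were not those with the largest differences of Ly6a. The mean log2 change of the interferon-induced genes was -2.29 in 52419 and -1.07 in 53369, against -0.21 in 52205, -0.41 in 52424, -0.14 in 53105 and -0.04 in 53371. In 52419, 53369, 52205, 52424, 53105 and 53371, in that order, Ly6a had log2 differences of -1.20, 0.63, -1.69, -1.13, -1.35 and -0.03. In 52419 both were thus lower after Cre, while in 53369 Ly6a was higher. In 52205 and 53105 Ly6a differed by far more than the mean of the interferon-induced genes did. Some genes of the list had few reads in some lines, and the pseudocount understates their changes. Ifit1 had 2 reads in Cre and 7 in parental cells of 52205, but 38 and 42 reads in 53105. Single genes of the list did not all follow that mean. In 53105, Ifitm3 was at 32.0 CPM after Cre and 90.6 CPM in parental cells, against 51.9 and 133 CPM of Ly6a. Across lines, single genes of that list ran unlike Ly6a or like it. Ifitm3 was at 0.179 CPM in 52205, 105.6 in 52419, 0.727 in 52424, 32.0 in 53105, 208 in 53369 and 10.5 in 53371 after Cre, against 0.375, 316, 1.89, 90.6, 431 and 12.8 CPM in parental cells. Thus 52424, the line with the most Ly6a, had at most 1.89 CPM of Ifitm3, and 52419 and 53369, with the least Ly6a, had the most Ifitm3. Samd9l, a gene of the same list named after its values were seen, was highest in 52424 as Ly6a was, at 35.9 CPM in Cre and 43.6 CPM in parental cells, and was at 0.538 CPM in Cre and 8.10 CPM in parental cells of 52419.

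Markers of stem and progenitor cells other than Sca-1 were also compared. Most are surface proteins, but the list also holds the intracellular enzymes Aldh1a1 and Dclk1. Of 13 tested, 10 lay below 0 (median log2 change -0.22), as did 50.1% of all genes tested. The 3 above 0 were Aldh1a1 at 0.44 (limma adjusted p = 0.351), Lgr5 at 0.07 and Eng at 0.002. In limma's test without adjustment, 3 were lower and none higher at p under 0.05, where 8.18% of all genes were lower and 6.96% higher. Limma and edgeR called none and DESeq2 called 2 lower, as it did 1.63% of all genes. Nt5e, the ecto-nucleotidase CD73 and like Ly6a a GPI-anchored protein, had a log2 change of -0.99 (limma adjusted p = 0.134), Alcam, an adhesion molecule, -0.52 (0.206), Itga6, a laminin receptor chain, -0.39 (0.205) and Prom1, the membrane protein CD133, -0.70 (0.338). The mean change of these markers per line was -0.68 in 52205, -0.58 in 52424, -0.27 in 53105, -0.25 in 52419, -0.06 in 53371 and 0.16 in 53369. As with Ly6a, 53369 was the one line above 0 and 53371 the line closest to 0.

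Epithelial and other markers moved with line and in part with Ly6a. The 10 ductal epithelial genes split into 5 below and 5 above 0, with a median log2 change of 0.01, and limma and edgeR called none while DESeq2 called 1 lower and 1 higher. At an unadjusted p under 0.05 in limma, 2 were lower and 1 higher, where 8.18% of all genes were lower and 6.96% higher. DESeq2 called 2.12% of all genes in either direction. Epcam, an epithelial adhesion molecule that is also on the list of stem cell markers, was at 11.1 CPM in 52205, 0.384 in 52419, 127 in 52424, 2.14 in 53105, 0.50 in 53369 and 100.2 in 53371 after Cre. In parental cells of those lines it was at 79.3, 0.818, 366, 1.99, 0.612 and 69.2 CPM, so that 52424 was the highest for Epcam too. Krt19, a ductal keratin, had a log2 change of 0.49 (limma adjusted p = 0.195), Spp1, a secreted phosphoprotein, -0.61 (0.248), Muc1, a mucin, -0.62 (0.258) and Epcam -0.74 (0.379). The summed level of the list was 4221 to 19499 CPM in Cre and 8853 to 26966 CPM in parental libraries, and its part in the Ly6 values was not tested. Most of this sum was Spp1 in some lines, with 3861 CPM in Cre and 8408 CPM in parental cells of 52419 and 9916 CPM in Cre and 17614 CPM in parental cells of 53369.

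**Figure D3:**
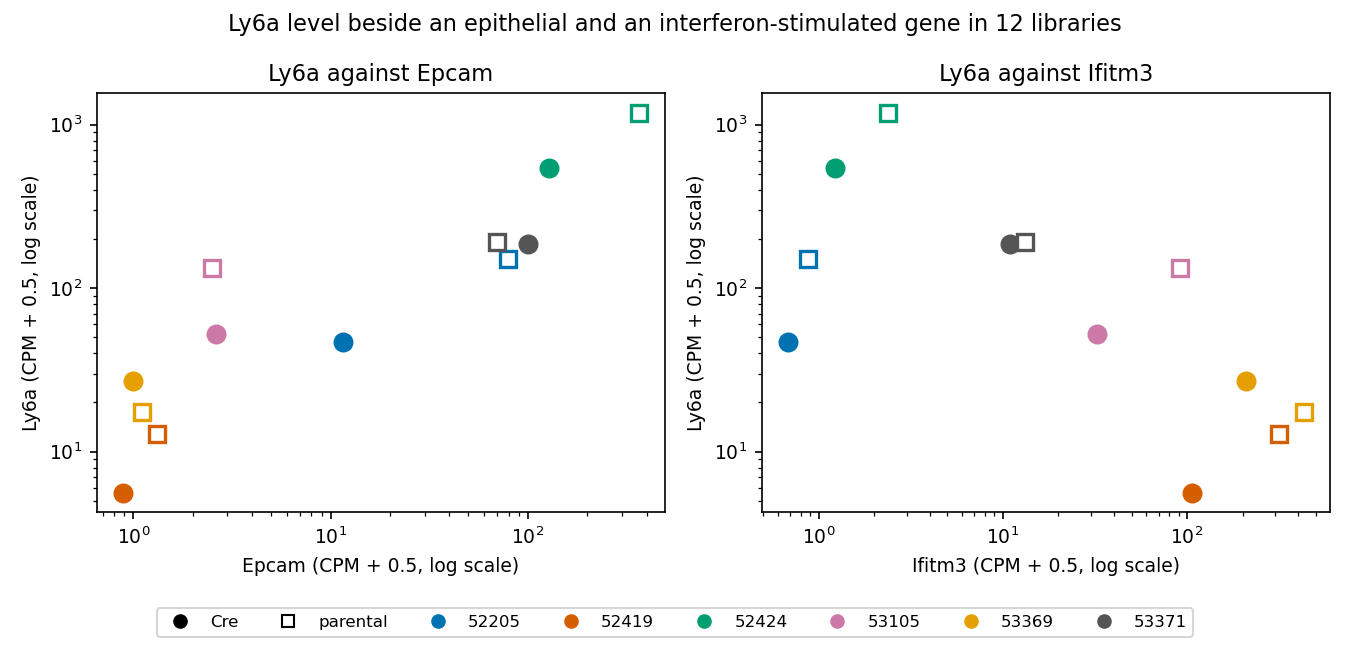
Level of Ly6a (vertical axis) against that of Epcam on the left and of Ifitm3 on the right in the 12 libraries, all as CPM + 0.5 on log axes, with filled circles for Cre, open squares for parental libraries and 1 color per line. Line 52424 is at the top for Ly6a and Epcam, while 52419 and 53369, at the bottom for Ly6a and at most 0.818 CPM of Epcam, have the most Ifitm3 (105.6 to 431 CPM).

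Of the 4 fibroblast markers tested, Pdgfra, a growth factor receptor, had a log2 change of -0.71 with a limma adjusted p of 0.0786, Col3a1 -0.45, Pdgfrb -0.05 and Col1a1 0.13. Limma called none of these 4 genes, though 1 was lower without adjustment, while edgeR and DESeq2 each called 1 of them lower. Over all genes, 8.18% were lower and 6.96% higher without adjustment. EdgeR called 0.0393% of all genes in either direction and DESeq2 called 1.63% as lower. Their list summed to 8.11 to 1271 CPM in Cre and 9.77 to 2182 CPM in parental libraries. The highest sums were both in 53369, the line with more Ly6a after Cre, and the next were in 52419, at 148 CPM in Cre and 181 CPM in parental cells. Of the squamous genes, which Ly6d can accompany, Krt13 had a change of 0.68 (limma adjusted p = 0.295), Ivl -0.19 and Sfn -0.05, with 0 called by limma, edgeR or DESeq2 and 0 lower and 1 higher at an unadjusted p under 0.05. They summed to 9.67 to 165 CPM in Cre and 9.21 to 161 CPM in parental libraries. Of 8 endothelial markers only Kdr was tested (-0.51, limma adjusted p = 0.291), and no leukocyte marker passed the filter. The part of these cell types in the Ly6 values was not tested.

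Among all tested genes with a symbol, those whose levels ran most like Ly6a over the 12 libraries were Myo1d, an unconventional myosin, with a Pearson correlation of log2 values of 0.971, Atp8b1, a lipid flippase, with 0.970, Hs3st1, a heparan sulfate sulfotransferase, with 0.970, Ptpn3, a tyrosine phosphatase, with 0.963, and Nudt16, a hydrolase, with 0.963. Ly6a itself was the gene most like Ly6c1, at 0.925, followed by Zkscan7, Nudt16, Nipal2 and Tlcd4 at 0.924 to 0.903. Ly6e was most like Mks1 at 0.915, followed by Irf2, Ly6c1, Golga4 and Vtcn1 at 0.891 to 0.881. Ly6a and Ly6e correlated at 0.755. Among epithelial markers Ly6a correlated with Epcam at 0.897, with Cdh1 at 0.833, with Krt19 at 0.809 and with Krt8 at 0.681. These correlations are descriptions over 12 libraries of 6 lines, and the 2 libraries of a line share their origin. Of the 5 genes most like Ly6a, none was called in limma's comparison of Cre with parental cells, with log2 changes of -0.61 to -0.21. Myo1d and Ptpn3 were lower at an unadjusted p under 0.05, as were 8.18% of all genes.

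The 5 members lie within 350 kb of chromosome 15, between 74762056 and 75112066. Of the tested genes within 1 Mb of this stretch, Ly6e, Ly6a and Ly6c1 follow each other in that order. The 26 other tested genes there had log2 changes of -0.42 to 0.76 with a median of 0.07, 9 below 0 and 17 above. At an unadjusted p under 0.05 in limma, 0 of the 26 were lower and 4 were higher, Psca (0.76), Them6 (0.72), Scrib (0.22) and Pycrl (0.20), all with adjusted p of 0.204 or more by Benjamini-Hochberg. Over all genes tested, 8.18% were lower and 6.96% higher at that unadjusted threshold, and 50.1% were below 0. The tested genes on either side of the 3 members were Lynx1 at -0.09 and Ly6g2 at 0.16.

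**Figure D4:**
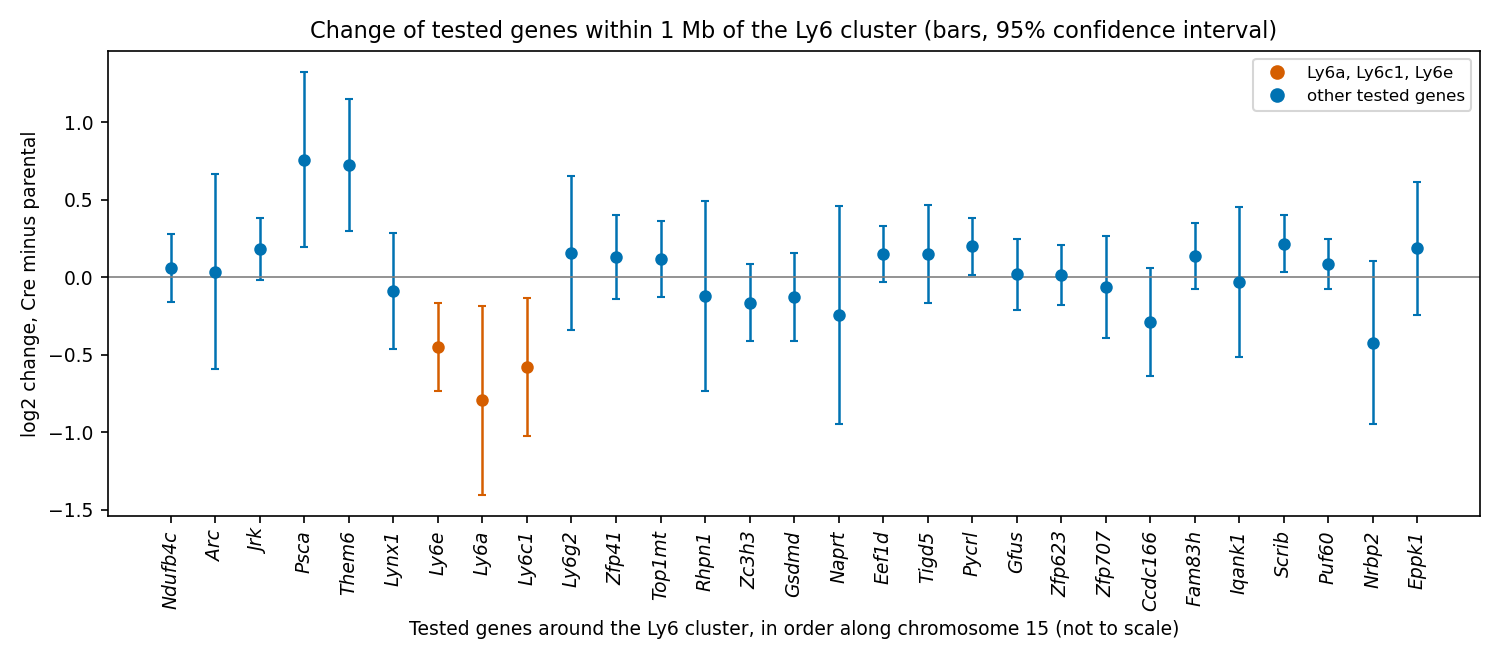
Log2 change, Cre minus parental, of the 29 tested genes within 1 Mb of the Ly6 cluster, in order along the chromosome and not to scale, with bars for the 95% confidence interval of limma. Ly6e (-0.45), Ly6a (-0.79) and Ly6c1 (-0.58) lie side by side with estimates below those of the 26 other genes, whose lowest is -0.42.

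Promoter windows of 300 bases, from 250 before to 50 after the start, were at hand for Ly6c1 and Ly6c2 in the RefSeq-based table. Cores of 2 interferon-related motifs were searched on both strands. The core of the gamma-activated site, TTCNNNGAA, was held by 8.30% of all 32851 windows, and that of the interferon-stimulated response element, a pair of GAAA runs with 2 bases between them, by 3.44%. Neither set of letters was in the 4 windows of these 2 genes. The 2 windows of each gene overlap, and few of all windows hold either core, so this absence says little. Ly6a, Ly6d and Ly6e had no window to search.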

How the data were processed

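RNA was captured with oligo(dT) beads, per the labels' protocols. The builds GRCm38 and mm10 and the tools edgeR, featureCounts and FastQC 0.11.9 are named in the submitters' processing notes, with no aligner. The authors deposited a linear signal per gene, read counts scaled to CPM, and a log2 table of 10903 genes, equal to the genes at or above 5 CPM in at least 6 libraries. Of the linear values, 100% were whole multiples of 1 step within a tolerance of 0.01, so reads were recovered. TMM scaling recomputed from them matched within a relative deviation of 6.21e-09. Entrez numbers were named from RefSeq for 19448 genes and from GENCODE for 11, and 973 stayed unnamed.

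The members and lists were chosen with earlier results of these data known. Genes at or above 1 CPM in at least 6 libraries were tested on log2(value + 0.5) with limma-trend 3.58.1 in R 4.3.3, with the cell line as a block, 2-sided, and Benjamini-Hochberg adjustment over 12734 genes, called under 0.05. The log2 scale with a pseudocount understates changes of low genes. The pairing comes from the line named in the titles, and the 2 libraries of a line deviated together in all 6 lines (correlations 0.732 to 0.946). Ly6c2 and Ly6d, below the filter, were given the mean of 6 pair differences with an exact sign-flip test. Named genes were, by rule, the members, tested family genes, the 5 genes most correlated with each tested member, the 4 genes with the smallest p in each list, and neighbours at an unadjusted p under 0.05. Other genes were named after their values were seen. Some genes of the lists are counted but not reported by name here. Alternatives included edgeR 4.0.16 and DESeq2 1.42.0 on the recovered read counts.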

Additional observations from a re-analysis of the deposited data

Results flagged for a closer look

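Each of the 5 members was examined in the 6 Cre libraries, the 6 parental libraries and the 6 pair differences. In 7 of these 15 sets 1 library stood apart from the rest by Dixon's test, which flags about 1 in 20 sets of normally distributed values by chance. The levels were taken as CPM and not as logs, and lines spread widely on that scale. The 7 of 15 can therefore not be set against that rate. In 6 of the 7, the library was one of line 52424. Ly6a was highest there at 540.3 CPM in Cre and 1187 CPM in parental cells, and so was Ly6c1 at 51.7 CPM in Cre and 129 CPM in parental cells. Ly6c2 at 4.65 CPM and Ly6e at 947 CPM stood apart in parental cells of 52424. Ly6d stood apart in Cre cells of 53371 at 0.169 CPM, which is 2 reads where the other 5 Cre libraries had 0. With 5 values at 0, any read in the remaining library would have been flagged. The groups share their lines and the members share libraries, so these sets are not independent of each other.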

How the results depend on the processing

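Under the 20 alternatives run for Ly6a, Ly6c1 and Ly6e and the 12 run for Ly6c2 and Ly6d, every member kept a negative change, and none of Ly6a, Ly6c1 and Ly6e reached the threshold. For Ly6c2 and Ly6d the sign-flip test cannot reach it with a line left out (5 pairs allow no p below 0.0625), so these alternatives bear only on the size of the change. With each line left out in turn, the log2 change was -1.08 to -0.62 for Ly6a, -0.77 to -0.43 for Ly6c1, -0.64 to -0.25 for Ly6c2, -0.65 to -0.28 for Ly6d and -0.53 to -0.37 for Ly6e. The changes of Ly6c2 and Ly6d were nearest to 0 without 52424, and edgeR on all genes gave them -0.75 and -3.43, neither called. Library weights moved Ly6a to -0.45 and Ly6c1 to -0.32. Without the block (the pairing by line), Ly6a, Ly6c1 and Ly6e kept their changes of -0.79, -0.58 and -0.45 with limma adjusted p of 1.00, and 0 genes were called in place of 3. The number of genes called was also 0 with no filter, 34 with library weights, 5 with edgeR, 270 with DESeq2, 61 with edgeR on all genes (an alternative chosen after seeing the data), and 0 (without 52419, 52424 or 53369) to 5 (without 52205) with 1 line left out. With library weights the log2 changes of Col1a1 (-0.128), Lynx1 (0.0810) and Sfn (0.0990) turned sign. With 1 line left out, 8 named genes with changes near 0 turned sign: Lynx1 ran from -0.179 to 0.0352 (above 0 without 52205 or 52424), Sfn from -0.501 to 0.297 (above 0 without 52205 or 52424), Ivl from -0.396 to 0.0437 (above 0 without 52419), Tlcd4 from -0.0806 to 0.217 (below 0 without 52419, 53369 or 53371), Plaur from -0.0564 to 0.0679 (below 0 without 53369), Pdgfrb from -0.229 to 0.0709 (above 0 without 53371 or 53105), Cd59a from -0.0138 to 0.317 and Col1a1 from -0.0398 to 0.397 (both below 0 without 53105). The cause was not tested. Settings that keep the filter could not be run for Ly6c2 and Ly6d, whose 178 and 31 reads limit what can be seen.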
